A study of Mus musculus with 8 samples.

Results

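Complement is the set of plasma and cell-surface proteins that tags injured cells and microbes, and 9 genes of it (C3, C4b, Cfb, Cfd, Serping1, C3ar1, C5ar1, Cd55 and Cd59a) were taken here by gene symbol from an array study of reperfused mouse heart. A probe set naming the gene alone was used for 7 of the 9, among 19938 genes tested; C3 and Cfd were not analysed here. Each of the 7 had 1 such probe set, and all 7 had a mean level above the array background, taken as the 95th percentile (4.74 on the log2 scale) of 1027 olfactory receptor genes.

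The arrays came from 8 male mice given as strain CH3, 8 to 10 weeks old and 25 to 30 g in weight. One group of 4 mice received phosphate-buffered saline (placebo) and the other 4 received recombinant DJ-1 protein, a small redox-sensitive protein, in each case 1 hour before ligation of the left anterior descending coronary artery. The occlusion lasted 45 minutes and reperfusion 2 hours in both groups, so every heart was injured and no uninjured heart is part of the comparison. Placebo mice carry the earlier sample codes in the labels and DJ-1 mice the later ones; if that is a processing order, its effect and the treatment's cannot be told apart. Cardiomyocyte genes marked the tissue as labelled: Tnnt2 averaged 13.63 and Myh6 12.91 in placebo hearts, while the liver gene Alb, at 3.87, and the lung epithelial gene Sftpc, at 3.58, were below background.

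Complement is started by antibody and C1 (classical pathway), by sugar-binding lectins, or by slow self-activation of C3 that factor B and factor D amplify (alternative pathway). All routes cleave C3 and then C5, releasing the small peptides C3a and C5a that call in and activate white blood cells, and end in a membrane pore. Host cells are protected by C1 inhibitor in plasma and by membrane-bound CD55 and CD59, and in the reperfused heart complement is known as an early part of the inflammatory response. Most plasma complement protein is made by the liver, so heart transcripts report local synthesis and the cells present.

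None of the 7 genes (0 of 7) differed between DJ-1 and placebo hearts past an adjusted p of 0.05 in the limma fit, against 0% of all 19938 genes. None reached an unadjusted p of 0.05 either (0 of 7), where 5.99% of all genes did, although C5ar1 was under it in 9 of 17 other analyses (limma unadjusted p from 0.00819 to 0.151) and the other 6 genes in 0 of 17. No gene of the 7 had groups that did not overlap, where 3.22% of all genes did. The gene with the widest difference was C5ar1, the C5a receptor of neutrophils and other myeloid cells, whose level was 6.69 ± 0.20 (SD, n = 4) with DJ-1 and 6.27 ± 0.45 (SD, n = 4) with placebo. Means were higher in DJ-1 hearts for 5 of the 7 genes, where 52.5% of all genes and 45.4% of genes above background were higher. The median difference of the 7 was 0.08 on the log2 scale, against 0.01 for all genes and -0.01 for genes above background. The median of the 7 ran from 0.021 without DJ-1 replicate 2 to 0.164 without placebo replicate 2, and was 0.041 to 0.054 under 3 other scalings. For the 6 genes other than C5ar1, the 95% confidence interval of the difference lay within 0.5 on the log2 scale (1.41-fold) in either direction. The interval lay within the same bounds for 82.9% of all genes.

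**Figure D1:**
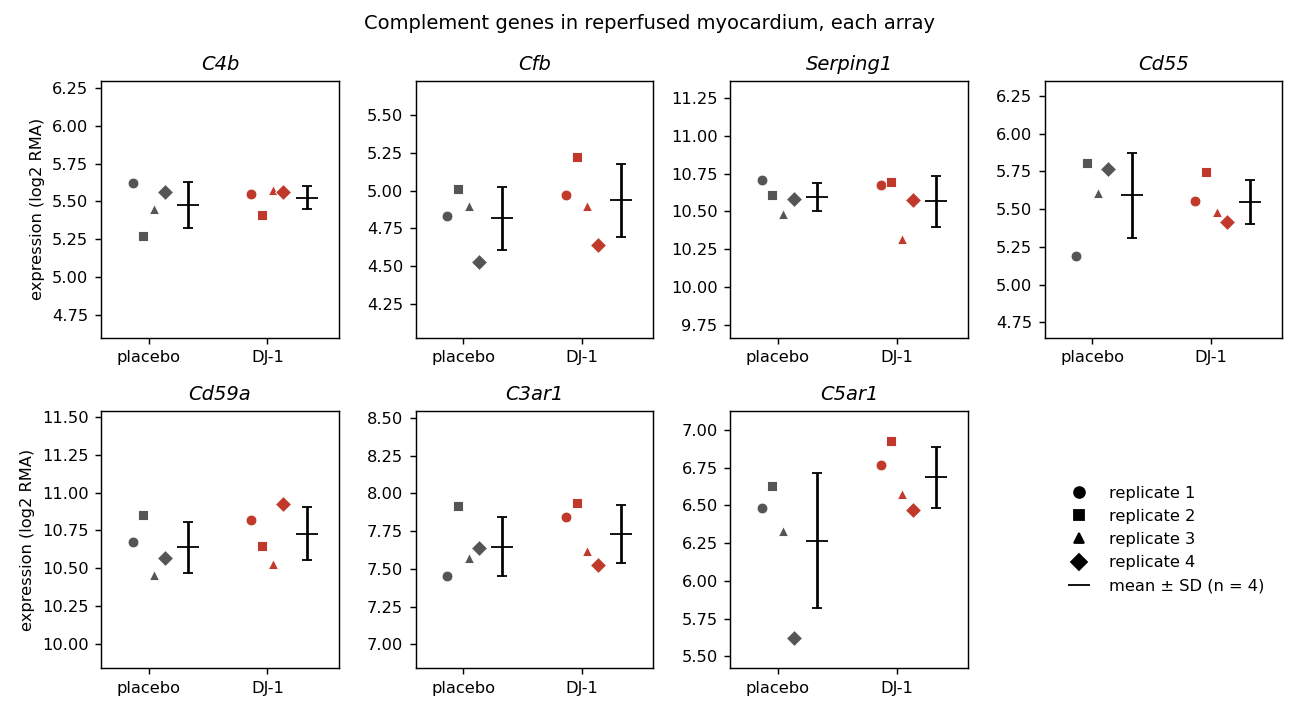
Expression (log2 RMA values, vertical axis) of the 7 complement genes in each placebo and DJ-1 array; symbols mark the replicate number and bars the mean ± SD (n = 4). Every panel spans the same height in log2 units, and the groups overlap in all 7; the low placebo point of C5ar1 is replicate 4 at 5.62.

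Among the components, C4b encodes complement C4, the substrate of the C1 and lectin proteases. It measured 5.62, 5.27, 5.45 and 5.56 on the placebo arrays, in the order of replicates 1 to 4, and 5.55, 5.41, 5.58 and 5.56 on the DJ-1 arrays in the same order. All DJ-1 values lay inside the placebo range, and the difference of 0.05 (95% confidence interval -0.17 to 0.27; limma adjusted p = 0.948) was smaller than the spread between replicates. C4a, a near-identical neighbour of C4b, had its own probe set at 3.86, below background, and how far the 2 probe sets share signal was not tested.

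Cfb encodes factor B, the protease that forms the alternative pathway convertase with C3b. It measured 4.83, 5.01, 4.90 and 4.53 on the placebo arrays, in the order of replicates 1 to 4, and 4.97, 5.23, 4.90 and 4.64 on the DJ-1 arrays in the same order. This is close to the background level of 4.74, and replicate 4 was the lowest array of each group and below that level in both. The group difference was 0.12 (95% confidence interval -0.19 to 0.42; limma adjusted p = 0.899).

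Among the regulators, Serping1 encodes C1 inhibitor, which blocks the C1 and lectin pathway proteases and also plasma kallikrein. It measured 10.71, 10.61, 10.48 and 10.58 on the placebo arrays, in the order of replicates 1 to 4, and 10.68, 10.69, 10.32 and 10.57 on the DJ-1 arrays in the same order. The lowest array was DJ-1 replicate 3, and the other 3 DJ-1 arrays fell within the placebo range. The difference was -0.03 (95% confidence interval -0.26 to 0.20; limma adjusted p = 0.968), and the probe set was brighter than 97.8% of the genes tested, which is a statement about signal and not about molar amount.

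Cd59a encodes the membrane anchor protein that keeps C9 out of the pore. It measured 10.68, 10.85, 10.46 and 10.57 on the placebo arrays, in the order of replicates 1 to 4, and 10.82, 10.65, 10.53 and 10.92 on the DJ-1 arrays in the same order. The arrays of both groups were interleaved, with a difference of 0.09 (95% confidence interval -0.17 to 0.35; limma adjusted p = 0.905). The second CD59 gene of the mouse, Cd59b, had a difference of -0.05 (SE 0.14).

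Cd55 encodes decay-accelerating factor, which takes the C3 and C5 convertases apart. It measured 5.19, 5.81, 5.60 and 5.77 on the placebo arrays, in the order of replicates 1 to 4, and 5.55, 5.75, 5.48 and 5.41 on the DJ-1 arrays in the same order. Placebo replicate 1 was the lowest of the 8 arrays and placebo replicate 2 the highest, so the placebo group spanned the DJ-1 group. The difference was -0.04 (95% confidence interval -0.35 to 0.26; limma adjusted p = 0.965).

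Among the receptors, C3ar1 encodes the receptor for C3a, found on macrophages and other myeloid cells. It measured 7.45, 7.92, 7.57 and 7.64 on the placebo arrays, in the order of replicates 1 to 4, and 7.84, 7.93, 7.62 and 7.52 on the DJ-1 arrays in the same order. Replicate 2 of each group was its highest array, and the groups overlapped over most of their range. The difference was 0.08 (95% confidence interval -0.19 to 0.36; limma adjusted p = 0.922).

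C5ar1 measured 6.49, 6.63, 6.33 and 5.62 on the placebo arrays, in the order of replicates 1 to 4, and 6.77, 6.93, 6.58 and 6.47 on the DJ-1 arrays in the same order. Placebo replicates 3 and 4 lay below all DJ-1 arrays, and DJ-1 replicates 1 and 2 lay above all placebo arrays. The difference was 0.42 (SE 0.19, 95% confidence interval -0.01 to 0.85), or 1.34-fold with an interval of 0.995 to 1.80, and it did not pass (limma unadjusted p = 0.0535, adjusted p = 0.824; exact two-sided permutation p = 0.143, where the smallest p that 4 against 4 arrays can give is 0.0286). A difference at least as large in size was held by 1.37% of all genes. The spread of C5ar1 between replicates was itself wide, with 4.19% of genes varying more within groups. Without placebo replicate 4 the difference was 0.20, and without DJ-1 replicates 3 and 4, the arrays at the far end of the first principal component (19.6 and 23.5 against -15.0 to 5.31 for the others), it was 0.58.

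The upstream DNA of the C5ar1 and C3ar1 genes is shown because they encode the receptors for the peptides C5a and C3a, and C5ar1 held the widest difference of the 7 genes. Each run is the 250 bases before the annotated start (RefSeq, GRCm38.p6), and capitals mark GGAA on either strand (TTCC where it lies on the opposite strand), the core bound by ETS factors, a family that includes the myeloid regulator PU.1.
C5ar1, chr7:16259339-16259588, minus strand: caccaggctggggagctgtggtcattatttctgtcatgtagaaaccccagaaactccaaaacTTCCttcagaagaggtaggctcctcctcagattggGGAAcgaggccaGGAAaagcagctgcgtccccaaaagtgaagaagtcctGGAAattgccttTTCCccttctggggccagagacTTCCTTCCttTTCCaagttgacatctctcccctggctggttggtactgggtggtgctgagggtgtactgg
C3ar1, chr6:122856158-122856407, minus strand: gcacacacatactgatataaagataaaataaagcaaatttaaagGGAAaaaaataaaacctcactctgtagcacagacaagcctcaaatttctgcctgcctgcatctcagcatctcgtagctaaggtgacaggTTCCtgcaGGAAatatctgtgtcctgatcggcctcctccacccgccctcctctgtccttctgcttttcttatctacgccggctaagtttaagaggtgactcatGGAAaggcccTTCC

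GGAA occurred 8 times before C5ar1, and 1.46% of 27025 promoters of the same length held at least as many; the median was 3. It occurred 5 times before C3ar1 and 5 times before Cd59a, a count reached by 18.0% of promoters, and 1 time before Cd55. No upstream sequence was at hand for C4b, Cfb or Serping1, which were not searched. At least 1 GGAA was present in 93.4% of promoters. The longer GAGGAA, which contains GGAA, was found before Cd59a and in 23.1% of promoters, and not before C5ar1, C3ar1 or Cd55. The C/EBP-type core TTGCNNAA, where N is any base, was in none of these 4 windows and in 9.55% of promoters, and TATAAA was found in the C3ar1 window, at position -235 from the start, and in 13.0% of promoters. All motifs were searched on both strands, and GGAA was chosen after the receptor levels had been seen. Matches are letters in a window and not measured binding.

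Markers of neutrophils, the white cells that enter reperfused heart early, varied widely between arrays and moved with C5ar1. The mean of 14 measured neutrophil markers (each gene centred on its average over the arrays; C5ar1 is not among them) was -0.22, 0.73, -0.54 and -1.26 on placebo arrays 1 to 4, and on DJ-1 arrays 1 to 4 it was 0.75, 0.94, -0.01 and -0.39. The order of the 8 arrays by C5ar1 was the order by this mean (Spearman rho = 1.00, exact permutation p = 5e-05; Pearson r = 0.91, exact permutation p = 2.5e-05; both are the smallest p that the pairings can give). Adjusted over the 21 relations computed (7 genes with neutrophil, monocyte and macrophage, and adipocyte markers), these were 0.00105 and 0.000525. The p-values of all 21 relations take the 8 arrays as independent of each other. From highest to lowest, C5ar1 and the neutrophil mean both ran in the order of replicates 2, 1, 3 and 4 in each group. Whether the numbers mark a factor shared between arrays was not tested. Pearson r was 0.92 without the 2 arrays farthest from the median marker mean (placebo replicate 4 and DJ-1 replicate 2) and 0.90 on deviations from the group means. In tissue RNA, more cells of a type and more RNA per cell cannot be told apart.

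Means were higher with DJ-1 for all 14 neutrophil markers, 12 of the 14 lay above background, and the defining markers S100a8, S100a9 and Ly6g were detected at average levels of 5.93, 7.10 and 5.53. The list mean ranged from -1.26 to 0.73 in placebo and from -0.39 to 0.94 in DJ-1 hearts, which overlap (exact permutation p = 0.2). The 3 markers of smallest p were Ltf, Lcn2 and Ngp, with differences of 0.35 (SE 0.14), 1.07 (SE 0.49) and 1.06 (SE 0.57). Ltf lay below background in both groups (3.69 in placebo and 4.04 in DJ-1 hearts). Ngp averaged 4.54 in placebo hearts, below background, and 5.60 in DJ-1 hearts. Other cell types' markers also differed in mean: 4 of 4 erythroid markers were higher with DJ-1 (list difference 0.34, exact permutation p = 0.114) and 8 of 8 mesothelial markers were (0.12, exact permutation p = 0.4), while 9 of 12 fibroblast markers (-0.09, exact permutation p = 0.229), 7 of 10 endothelial markers (-0.10, exact permutation p = 0.171) and 8 of 10 ventricular cardiomyocyte markers (-0.07, exact permutation p = 0.286) were lower. The part of neutrophil or other cell content in the C5ar1 difference was not tested.

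Cfb followed these markers as well. For Cfb, Pearson r was 0.89 with the neutrophil mean (exact permutation p = 0.00241, adjusted 0.0168) and Spearman rho was 0.90 (exact permutation p = 0.00456, adjusted 0.0479). Without the same 2 arrays r fell to 0.72, and on deviations from group means it was 0.89. For C3ar1, Pearson r was 0.76 (exact permutation p = 0.0313, adjusted 0.113) and Spearman rho 0.64 (exact permutation p = 0.0962, adjusted 0.337), neither of which passed the adjustment; r was 0.92 without those 2 arrays. C4b ran the other way, at r = -0.51 (exact permutation p = 0.2, adjusted 0.408), with rho = -0.43 (exact permutation p = 0.299, adjusted 0.524) and r = -0.43 without the 2 arrays.

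With 13 monocyte and macrophage markers, r was 0.89 for Cfb (exact permutation p = 0.00176, adjusted 0.0168) and 0.79 for C5ar1 (exact permutation p = 0.00605, adjusted 0.0318). Spearman rho was 0.83 for Cfb (exact permutation p = 0.0154, adjusted 0.108) and 0.79 for C5ar1 (exact permutation p = 0.0279, adjusted 0.147). For C3ar1, r was 0.78 (exact permutation p = 0.0324, adjusted 0.113) and rho 0.57 (exact permutation p = 0.151, adjusted 0.397), and neither passed the adjustment. Without placebo replicate 4 and DJ-1 replicate 2, r was 0.75 for Cfb, 0.58 for C5ar1 and 0.83 for C3ar1. The relations of Cfb and C5ar1 thus rested in part on those arrays, that of C5ar1 more so. On deviations from the group means, r was 0.88 for Cfb, 0.83 for C5ar1 and 0.76 for C3ar1. The neutrophil and macrophage means are measured on the same libraries. The macrophage list includes Itgam, which is also counted among the other complement genes below. How far the neutrophil and macrophage relations are separate was not tested. The macrophage list differed by 0.07 between the groups, with 7 of 13 markers higher and group ranges of -0.23 to 0.14 in placebo and -0.14 to 0.21 in DJ-1 hearts. Its markers of smallest p were Fcgr1, Lyve1 and Cd14, with differences of 0.22 (SE 0.11), 0.36 (SE 0.19) and 0.63 (SE 0.35). Of the 21 relations, 4 passed an adjusted p of 0.05 by Pearson r and 2 by Spearman rho. None of these involved C3ar1, Serping1, Cd55, Cd59a, C4b or the adipocyte markers. Of the 10 adipocyte markers 5 were higher and 5 lower, and the 3 of smallest p were Ucp1, Plin1 and Lep, with differences of 0.20, 0.16 and 0.14; Ucp1 and Lep lay below background.

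**Figure D2:**
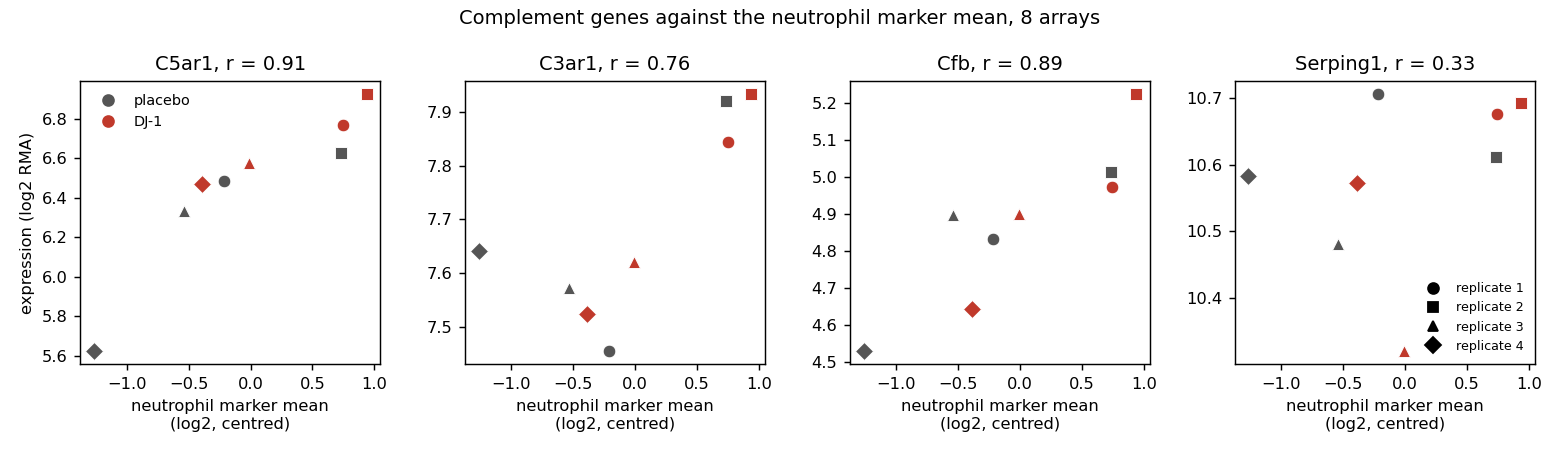
Expression (log2 RMA, vertical axes, each with its own scale) of C5ar1, C3ar1, Cfb and Serping1 against the mean of 14 neutrophil markers (centred log2, horizontal axes) in 8 arrays, grey for placebo and red for DJ-1, with symbols for the replicate number. C5ar1 keeps the order of the marker mean over all 8 arrays (r = 0.91), while Serping1 does not (r = 0.33).

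Of 45 other complement genes listed, 44 were measured, of which 27 had a higher and 17 a lower mean in DJ-1 hearts. None passed an adjusted p of 0.05 (0 of 44), and 3 of 44 had an unadjusted p under 0.05, all higher, against 5.99% of all genes in either direction. The median difference was 0.10 against 0.01 for all genes. This tilt lay in the dim genes: 15 of 18 at or below background were higher, where 68% of all such genes were, and 12 of 26 above background were, where 45.4% of all such genes were. With quantile normalization of the values, 25 of the 44 were higher and the median difference was 0.04, with 13 of the 18 dim complement genes higher where 50.8% of all dim genes were.

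The genes of smallest p were C8a, Itgax, C5ar2, C9, Csmd1 and C1s1. C8a encodes a chain of the pore component C8 and measured 4.13, 4.15, 4.25 and 4.14 on placebo arrays 1 to 4, against 4.60, 4.36, 4.49 and 4.53 on DJ-1 arrays 1 to 4. Itgax, a subunit of complement receptor 4 on myeloid cells, measured 4.45, 4.45, 4.48 and 4.29 on placebo arrays 1 to 4, against 4.90, 4.84, 4.63 and 4.67 on DJ-1 arrays 1 to 4. These were the 2 of 44 genes (4.55%) whose groups did not overlap, against 3.22% of all genes in either direction. Both were on the higher side, where 1.54% of all genes were, and both averaged below background (4.33 and 4.59). Differences were 0.33 (SE 0.09) for C8a and 0.34 (SE 0.10) for Itgax, each with a limma adjusted p of 0.824.

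C5ar2, the second C5a receptor, measured 5.45, 4.99, 5.14 and 4.95 on placebo arrays 1 to 4, against 5.46, 5.44, 5.47 and 5.43 on DJ-1 arrays 1 to 4. Placebo replicate 1 lay among the DJ-1 arrays and the other 3 lay below them, with a difference of 0.32 (SE 0.11; limma unadjusted p = 0.018, adjusted p = 0.824). Both C5a receptor genes therefore had higher means in DJ-1 hearts without passing, and C5ar1 and C5ar2 lie next to each other on chromosome 7 with 0 protein-coding genes between them. C9, which lines the pore, differed by 0.21 (SE 0.12), and Csmd1, a membrane regulator, by 0.16 (SE 0.10), both below background. C1s1, the C1s protease, differed by -0.25 (SE 0.15), and its neighbour C1ra, the C1r protease, by -0.25 (SE 0.17).

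By role, 3 of 7 classical, 5 of 8 lectin, 5 of 7 terminal, 8 of 12 regulator and 5 of 9 receptor genes had higher means. Among all genes 52.5% were higher, and 68% of those at or below background. Of the terminal genes 5 of 7 were at or below background, and of the regulators 7 of 12. Properdin (Cfp), the stabiliser of the alternative convertase, differed by 0.03 (SE 0.17). The C1q chains, made largely by macrophages, differed by -0.11 (SE 0.18) for C1qa, 0.11 (SE 0.14) for C1qb and -0.03 (SE 0.15) for C1qc. The pore component C7 had the widest range over the arrays among terminal genes, 1.22, with a difference of -0.14 (SE 0.22). Clusterin (Clu) and vitronectin (Vtn), fluid-phase inhibitors of pore assembly, differed by 0.12 (SE 0.13) and -0.05 (SE 0.10).

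**Figure D3:**
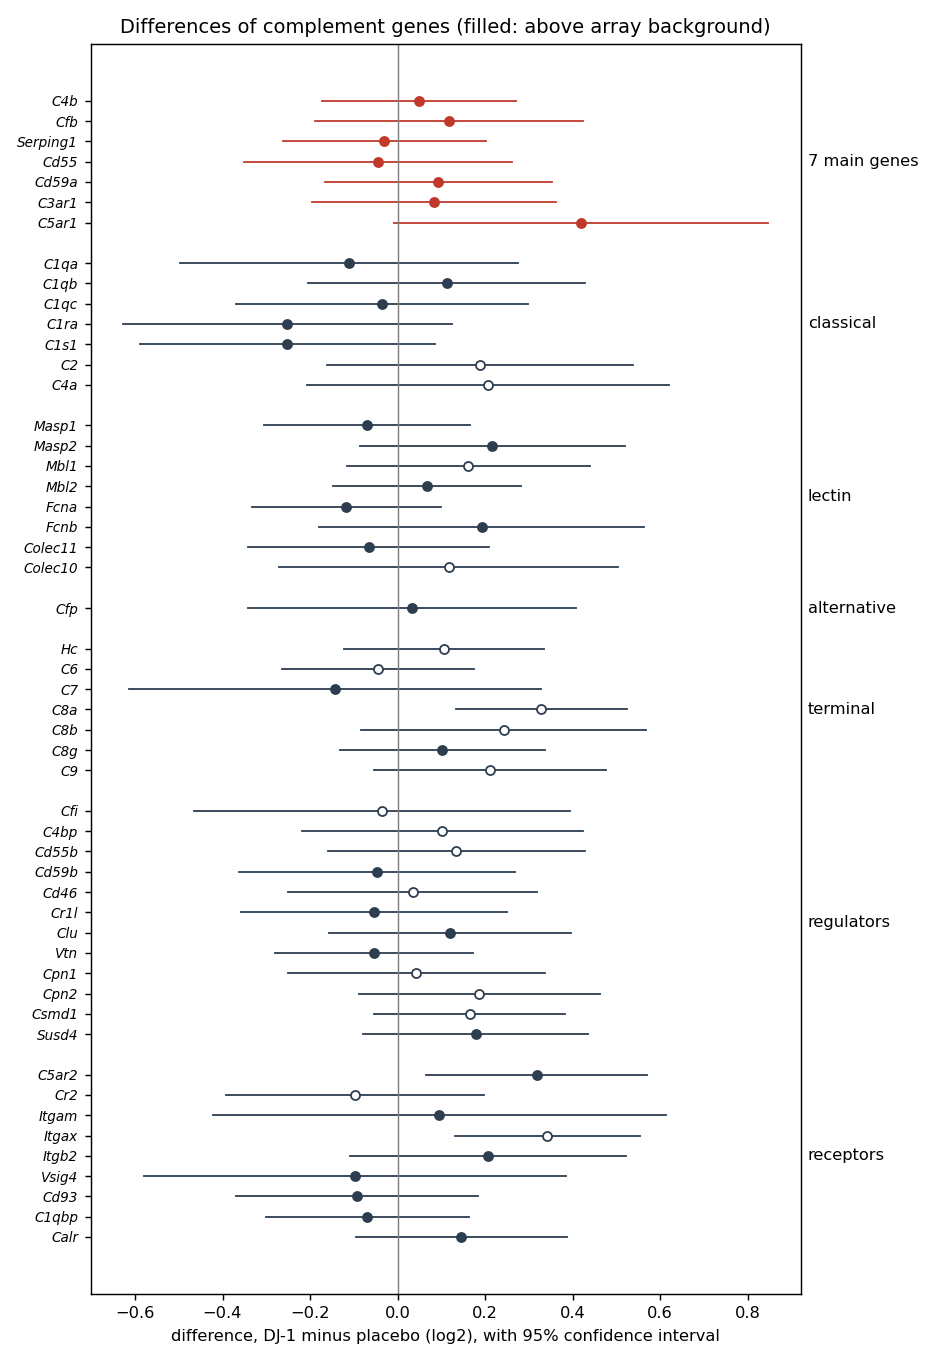
Difference (DJ-1 minus placebo, log2, horizontal axis) with its 95% confidence interval for the 7 main complement genes (red) and 44 others grouped by role; filled circles mark genes above array background and open circles those at or below it. Most intervals include 0, and the intervals of C8a, Itgax and C5ar2 do not, although none of these genes passed adjustment over all 19938 genes.

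As a description of pattern over the 8 arrays, the genes above background with the highest Pearson r were listed for each gene among 13692 candidates. They were Fgr (0.98), Uap1 (0.97) and Ikzf1 (0.97) for C5ar1, Ly6g (0.96), Ptbp1 (0.95) and Scoc (0.94) for C3ar1, and S100a8 (0.96), Selplg (0.96) and Slfn1 (0.96) for Cfb. For C4b they were Got1l1 (0.97), Sgta (0.96) and Marchf9 (0.94), for Serping1 Utp18, Trappc8 and Pole3 (each 0.97), for Cd55 3830406C13Rik (0.97), Tceal1 (0.95) and Stk25 (0.94), and for Cd59a Slc30a1 (0.98), Slc9a3r1 (0.98) and Nab2 (0.95). With 8 arrays and this many candidates, a highest r of this size was found for every one of the 7 genes.

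**Figure D4:**
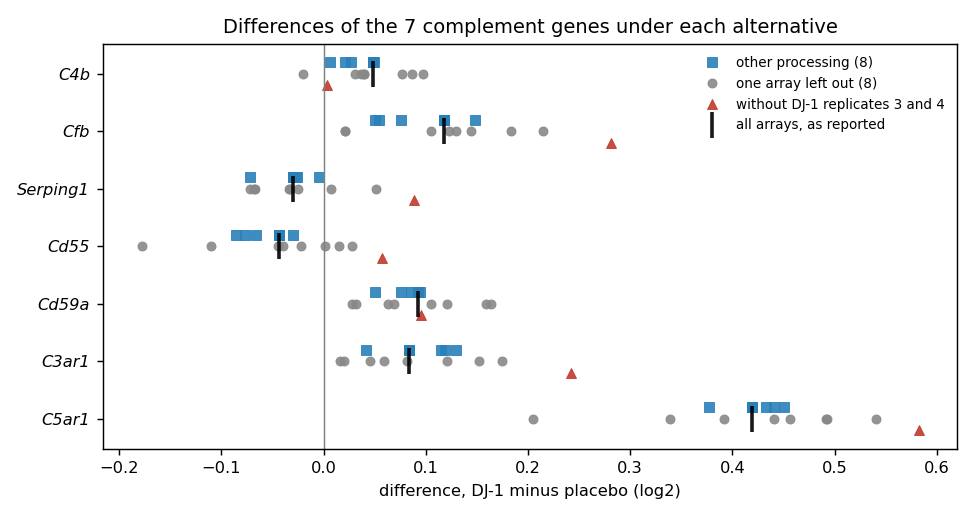
Difference (DJ-1 minus placebo, log2, horizontal axis) of the 7 complement genes with all arrays (black bar), under 8 other processing choices (blue), with each array left out (grey) and without DJ-1 replicates 3 and 4 (red). C5ar1 stays above 0 throughout, from 0.20 to 0.58, while Serping1, Cd55 and C4b cross 0.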

How the data were processed

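The deposited log2 values of 35556 probe sets on 8 arrays were made by the authors with RMA (robust multi-array average), per the submitters' processing notes; the RMA version was not given in the sources, and no scan date was used. The platform annotation named 1 gene for 21789 probe sets; the probe set of highest mean was kept for each of 19938 genes. DJ-1 was compared with placebo in limma 3.58.1 (lmFit, eBayes, two-sided; R 4.3.3) without covariates, with Benjamini-Hochberg adjustment over all genes. The number of arrays limits the precision: the median standard error was 0.117. The numbered samples were taken as separate mice; otherwise the p-values measure only the spread between these samples. Exact permutation tests used Python 3.11.15. The 7 measured genes of the 9 were described; of other complement genes, those at unadjusted p under 0.05 or without overlap, or else the 6 of smallest p, were named, and the 3 of smallest p of each of the neutrophil, macrophage and adipocyte lists. Genes and lists were chosen with earlier results of these data known. The fit was tested on simulated data. Alternatives covered scaling, a filter on dim genes, probe set rule, variance model, replicate block and left-out arrays.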

Additional observations from a re-analysis of the deposited data

Results flagged for a closer look

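Among 44 groups of 4 arrays examined (7 complement genes, 6 others named and 9 marker means, in each treatment), 4 had an array set apart from the other 3 by Dixon's criterion at the 95% level; chance gives about 1 in 20. C4b in DJ-1 replicate 2 was at 5.41, with the next array at 5.55. C8a in placebo replicate 3 was at 4.25, with the next at 4.15. Itgax in placebo replicate 4 was at 4.29, with the next at 4.45. The mean of the hepatocyte markers was -0.26 in placebo replicate 4, with the next at -0.01; 5 of its 7 measured genes were at or below background.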

How the results depend on the processing

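No complement gene passed under any of the 17 alternatives, and the lowest adjusted p of the 7 main genes was 0.689, for C5ar1 with the replicate block. In 4 alternatives the fitted difference cannot change; over the other 13 it kept its sign in 83 of 91 values. The exceptions, with each array left out, were Serping1 (range -0.072 to 0.052), C4b (-0.020 to 0.098) and Cd55 (-0.178 to 0.028), and without DJ-1 replicates 3 and 4, Serping1 (0.089) and Cd55 (0.057); the cause was not tested. C5ar1 ran from 0.20 without placebo replicate 4 to 0.54 without placebo replicate 2. The median of the other complement genes was 0.036 with quantile normalization, 0.056 with median centring, 0.041 with cyclic loess, -0.041 among the 26 genes above background, and 0.044 to 0.096 with each array left out. Over all genes, 0 to 1 gene passed with each array left out (Pramel27, without DJ-1 replicate 3) and 0 under the other alternatives; 781 against 1194 genes had an unadjusted p under 0.05 when genes at or below background were left out, which tests fewer genes. Same-numbered arrays of the groups had correlated deviations of 0.00452, 0.171, 0.177 and 0.00808, against a median of -0.0751 for unlike numbers. As 0 of 4 correlated best with their own number, the numbers were not taken to pair mice. From highest to lowest, C5ar1 and the neutrophil mean ran in the order of replicates 2, 1, 3 and 4 in both groups. Whether the numbers mark a shared factor was not tested. The replicate block gave 0 passing genes and a limma unadjusted p of 0.00819 for C5ar1. The correlations of C5ar1, C3ar1 and Cfb with neutrophil and with monocyte and macrophage markers kept their sign under 3 other scalings and with each array left out.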
